A study of Mus musculus with 10 samples.

Results

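Muscle relaxes when calcium is cleared from the cytosol, and the genes for that step were followed here in heart and skeletal muscle. They were the SERCA pumps Atp2a1, Atp2a2 and Atp2a3, the pump inhibitors Pln and Sln, the buffer Pvalb, the sodium-calcium exchangers Slc8a1 and Slc8a3, and the plasma membrane pumps Atp2b1 and Atp2b4. The genes were chosen by symbol for these known roles, and all 10 were found among the 23337 genes counted in each library.

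SERCA pumps use ATP to return calcium from the cytosol to the sarcoplasmic reticulum, and the small membrane proteins phospholamban (Pln) and sarcolipin (Sln) hold them back. Atp2a1 encodes the pump of fast skeletal fibres, Atp2a2 that of heart and slow fibres, and Atp2a3 one known from blood, endothelial and epithelial cells. Parvalbumin (Pvalb) binds calcium in the cytosol of fast fibres, whereas sodium-calcium exchangers and plasma membrane pumps carry it out of the cell, the exchangers being the main exit in heart.

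On mm10 the pump genes lie at chr7:126445860-126463073 on the minus strand (Atp2a1), chr5:122453513-122502225 on the minus strand (Atp2a2) and chr11:72961169-72993043 on the plus strand (Atp2a3). The inhibitor genes lie at chr10:53337686-53345999 (Pln) and chr9:53850251-53853849 (Sln), both on the plus strand, and Pvalb at chr15:78191118-78206351 on the minus strand. The exchanger genes lie at chr17:81373105-81738377 (Slc8a1) and chr12:81197915-81333180 (Slc8a3), both on the minus strand. The plasma membrane pump genes lie at chr10:98915152-99026143 on the plus strand (Atp2b1) and chr1:133702674-133753747 on the minus strand (Atp2b4). Each position spans the exons listed for the gene in the deposited tables.

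The data were bulk RNA-Seq of left ventricle (LV) and skeletal muscle (SkM) from 5 mice, with 1 library for each tissue of each mouse. E0del is the deletion of a conserved enhancer in the first intron of Ttn, the gene of the sarcomere protein titin. It was made with CRISPR/Cas9 in C57BL/6J zygotes and names a single mouse line, and E0del/+ mice carry it on 1 of their copies of Ttn. The mice of both genotypes were hybrids from crosses of C57BL/6 E0del/+ with 129SvEv WT mice and received no treatment named in the labels. The groups were WT LV (n = 2), E0del/+ LV (n = 3), WT SkM (n = 2) and E0del/+ SkM (n = 3). The age of these mice and the muscle sampled are not given in the sources used here, and the labels do not give the sex. A library name shared between tissues ties the LV and SkM of each mouse. The batch tag in the labels equals the replicate number, so that batches 1 and 2 hold both genotypes and batch 3 holds E0del/+ mice only.

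Total gene counts in LV were 13019392 in WT replicate 1, 11112647 in WT replicate 2, and 15361520, 11010021 and 11463197 in E0del/+ replicates 1 to 3. In SkM they were 13892390 and 17484873 in the WT libraries and 16252062, 15009186 and 14208815 in the E0del/+ libraries. Values are given as CPM, the counts of a gene per 1000000 gene counts of its library. A single count was worth 0.0572 to 0.0908 CPM. RPKM, which also divides by gene length, is used wherever levels of different genes are compared. The 10 most abundant genes of a library held 12.5 to 14.5% of all counts if it came from LV and 27.2 to 29.5% if it came from SkM. CPM of the remaining genes are therefore relative to different totals in the 2 tissues, and tests between tissues used TMM scaling.

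Ttn stood at 7959 and 9344 CPM in the WT LV libraries and at 7737, 5560 and 6597 CPM in E0del/+ LV replicates 1 to 3. In SkM it stood at 24204.5 and 15856 CPM in WT and at 20092, 18854 and 13585 CPM in E0del/+. All 3 E0del/+ LV libraries lay below both WT LV libraries, as 6.53% of the 13420 genes tested in LV did, and the genotypes overlapped in SkM. The WT LV value of 9344 CPM came from replicate 2, which also held fast fibre transcripts. Their part in its Ttn level was not tested. The other WT LV value, 7959 CPM, was close to the 7737 CPM of E0del/+ LV replicate 1. The deleted enhancer is intronic, so gene counts do not show the deletion itself.

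The ventricle marker Myh6 was at 37356 to 54803 CPM in LV and the fast fibre marker Myh4 at 70877 to 80026 CPM in SkM, as the tissue labels say. 2 libraries stood apart from their labels or their group. The WT LV replicate 2 library held fast fibre transcripts, with Myh4 at 18473 CPM against 70.3 to 81.7 CPM in the other 4 LV libraries. It was therefore kept out of the tissue comparison and its values are given separately. The WT SkM replicate 1 library held the Y-linked gene Ddx3y at 12.5 CPM, against 0.384 CPM in the LV of the same mouse and 94.1 to 107.8 CPM in the SkM libraries of WT replicate 2 and E0del/+ replicate 3. The cause was not tested for either library. Results that use them are given also without them where a call changed.

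**Figure D1:**
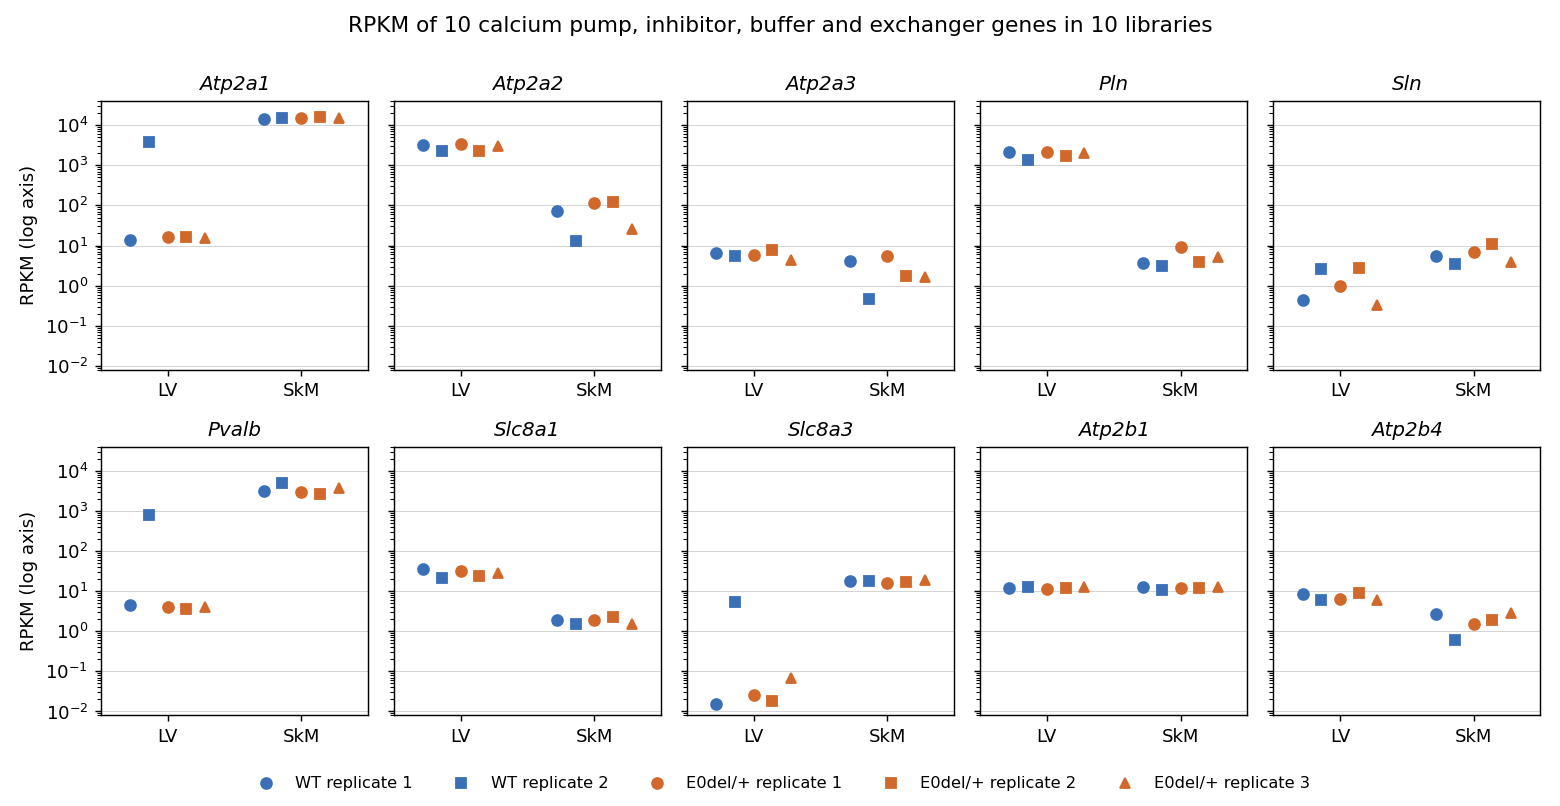
RPKM of the 10 genes (log axis) in the LV and SkM library of each mouse, 1 point for each library, WT in blue and E0del/+ in orange. Atp2a1, Pvalb and Slc8a3 are high in SkM and low in LV except in WT LV replicate 2 (blue square), and Atp2a2, Pln and Slc8a1 are high in LV.

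Among the SERCA pumps, the LV libraries used Atp2a2 and the SkM libraries Atp2a1. Atp2a2 stood at 18416 CPM in WT LV replicate 1 and at 19008, 13136 and 17710 CPM in E0del/+ LV replicates 1 to 3, and at 13045 CPM in WT LV replicate 2. In SkM it stood at 424 and 75.7 CPM in WT and at 673, 716 and 146 CPM in E0del/+. Every LV library lay far above every SkM library, and within SkM the values spread over a range of 9.46 times. Atp2a1 was at 48855 and 53067 CPM in WT SkM and at 52919.6, 54135 and 52333 CPM in E0del/+ SkM, a range of 1.11 times. In LV it was at 46.9 CPM in WT replicate 1 and at 55.3, 55.1 and 53.8 CPM in E0del/+ replicates 1 to 3, and at 12945 CPM in WT replicate 2. No LV value, that of WT replicate 2 included, overlapped a SkM value. Atp2a1 shares 761 exonic bases with Rabep2 on the opposite strand, and because the kit does not mark strand, reads of the overlap cannot be told apart. Rabep2 was at 5.20 to 18.7 CPM. Atp2a2 shares 83 such bases with Gm43361.

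Atp2a3 was the minor pump in both tissues. In LV it was at 30.4 and 25.6 CPM in WT and at 26.2, 36.1 and 20.5 CPM in E0del/+. Its SkM values were 18.8 and 2.12 CPM in WT and 25.8, 8.19 and 7.74 CPM in E0del/+. The tissues overlapped, since E0del/+ SkM replicate 1 lay above E0del/+ LV replicate 3, and WT SkM replicate 2 was the lowest library.

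Within 4 mice, SkM was higher than LV in Atp2a1 by 10.60 ± 0.350 (log2 fold change ± SE, adjusted p = 6.44e-07 in the quasi-likelihood test of edgeR, after Benjamini-Hochberg adjustment over 13375 genes). For Atp2a2 the edgeR log2 fold change was -4.68 ± 0.526 (adjusted p = 0.000195). Both held in 4 of 4 mice. For Atp2a3 the log2 fold change was -0.39 ± 0.269 and the edgeR adjusted p 0.243. Without the E0del/+ replicate 1 mouse it was -0.72 with an edgeR adjusted p of 0.0297, without the E0del/+ replicate 2 mouse it was -0.12, and over all alternatives tried its adjusted p ran from 0.0275 to 0.7097. Leukocyte and platelet markers, all 6 of which were detected in each SkM library, were summed. Within SkM the sum was highest in E0del/+ replicate 1, at 126.8 CPM. It was 81.6, 13.8, 22.7 and 34.0 CPM in WT replicates 1 and 2 and E0del/+ replicates 2 and 3. In LV the markers summed to 89.8 CPM in WT replicate 1 and 66.4 CPM in WT replicate 2. The sums were 109.0, 129.5 and 73.8 CPM in E0del/+ LV replicates 1 to 3, with Cd3e at 0 in replicate 3. The most abundant marker in E0del/+ SkM replicate 1 was Lyz2, the lysozyme of myeloid cells, at 21.5 RPKM. It was followed by Ptprc, the pan-leukocyte antigen, at 14.1 RPKM. Between tissues, the edgeR log2 fold changes of the endothelial genes Kdr, Cdh5, Pecam1 and Vwf were -2.68, -1.91, -1.70 and -1.15. Lyz2, Pf4 and Itga2b were at -1.38, -2.19 and -0.14, Ptprc and Cd3e at 1.83 and 6.13, and Cd79a was not tested. How far any of these cells entered the Atp2a3 result was not tested. In bulk tissue fewer cells of a type and less RNA per cell cannot be told apart.

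As shares of the summed RPKM of the 3 pumps, Atp2a1 took 0.421% in WT LV replicate 1 and 0.481, 0.691 and 0.503% in E0del/+ LV replicates 1 to 3. It took 62.2% in WT LV replicate 2. In SkM its share was 99.5 and 99.9% in WT and 99.2, 99.2 and 99.8% in E0del/+. All SkM libraries were thus above 99%, and the 4 LV libraries other than WT replicate 2 were below 1%. Within these 4 mice the Atp2a1 share was higher in SkM by 98.9 percentage points ± 0.354 (SD, n = 4; higher in 4 of 4). A two-sided exact permutation of signs over 4 pairs cannot reach 0.05, and this difference had the smallest p it allows. The Atp2a2 share changed by -98.7 points ± 0.425 (SD). Atp2a3 took 0.143 to 0.338% of the LV sum and 0.0110 to 0.0361% of the SkM sum in these mice, a difference of -0.192 points ± 0.0918 (SD) that had the same sign in 4 of 4 mice. The sum of the 3 pumps was larger in SkM, so this share can fall with no change in Atp2a3, whose own test did not pass. Shares within a library do not depend on how libraries are scaled.

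**Figure D2:**
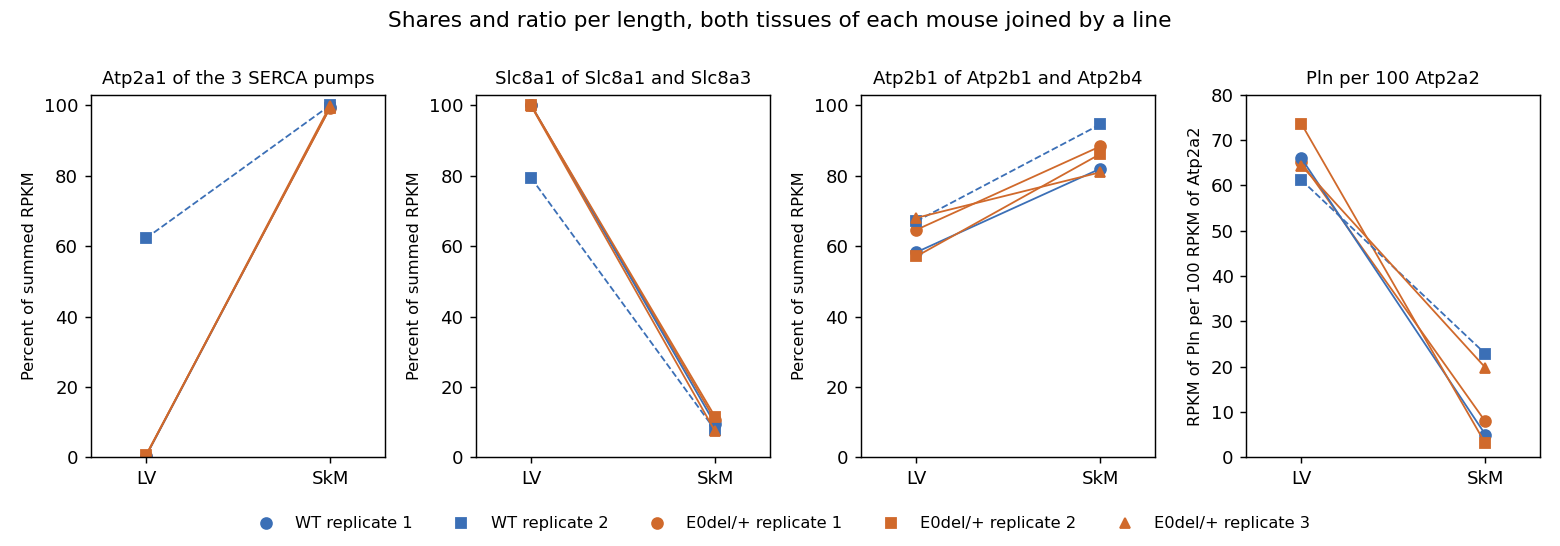
Shares of summed RPKM (percent) and the RPKM ratio of Pln to Atp2a2 in LV and SkM, with both tissues of each mouse joined by a line and the WT replicate 2 mouse dashed. The Atp2a1 share goes from under 1% to over 99% in 4 mice, in the same mice the Slc8a1 share goes from over 99% to 7.43 to 11.6%, and the Atp2b1 share is higher in SkM in each mouse.

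Pln was an LV gene in these libraries. It stood at 5261 CPM in WT LV replicate 1, 3456 CPM in WT LV replicate 2 and 5357, 4185 and 4935 CPM in E0del/+ LV replicates 1 to 3. In SkM it was at 9.29 and 7.49 CPM in WT and at 23.1, 9.59 and 12.5 CPM in E0del/+. All LV libraries lay above all SkM libraries, and E0del/+ replicate 1 was the highest of SkM. The log2 fold change of SkM against LV was -7.94 ± 0.316 (SE, edgeR adjusted p = 1.48e-06, lower in 4 of 4 mice). The Pln exons overlap those of Cep85l by 141 bases and of Gm47644 by 1372 bases on the opposite strand, and without strand their reads cannot be told apart.

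Sln was scarce in both tissues. It had 3 counts in WT LV replicate 1, 15 in WT LV replicate 2 and 8, 16 and 2 in E0del/+ LV replicates 1 to 3, or 0.174 to 1.45 CPM. In SkM it was at 2.81 and 1.83 CPM in WT and at 3.63, 5.60 and 2.04 CPM in E0del/+. Each SkM library was above each LV library. Summed over the 4 LV and 4 SkM libraries, 29 of 50854130 counts stood against 211 of 59362453, a ratio of 6.23 with an exact 95% interval of 4.22 to 9.54. Such intervals cover counting error only. The edgeR log2 fold change was 3.44 ± 0.361 (adjusted p = 0.000139, higher in SkM in 4 of 4 mice).

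Compared per length, Pln was present at 65.9 RPKM per 100 RPKM of Atp2a2 in WT LV replicate 1, 61.1 in WT LV replicate 2 and 65.1, 73.5 and 64.3 in E0del/+ LV replicates 1 to 3. In SkM the same ratio was 5.06 and 22.9 in WT and 7.93, 3.09 and 19.8 in E0del/+. The LV ratios lay close together, including WT replicate 2, and all were above the SkM ratios, of which the 2 highest belonged to the libraries with the least Atp2a2. The difference between tissues was -58.2 ± 10.7 (SD, n = 4 mice, lower in 4 of 4, with the smallest exact p possible). Sln per 100 RPKM of Atp2a1 was 0.0228 to 0.0684 in SkM, and 2.14 to 17.4 in the 4 LV libraries where both genes were low. That difference of -7.22 ± 6.98 (SD) became -3.84 without the E0del/+ replicate 2 mouse. On raw counts it was -1.09, which differs only by the fixed ratio of the gene lengths.

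Among the 10 genes, those with the largest log2 fold change in each direction between tissues were Atp2a1 and Pln, and the bases upstream of their transcripts are given to show what their promoters hold. Sequences are from RefSeq on build GRCm38.p6, where the table of promoter windows held 8 of the 10 genes, with 10 windows of 250 upstream bases. Neither Sln nor Atp2a2 was in that table. The windows were searched on both strands for TATAAA, known from core promoters, for the E box CAGCTG and for the MEF2 site. Of all 32851 such windows 12.4% held TATAAA, 13.0% held CAGCTG and 2.92% held a MEF2 site. Capitals mark the match, which in Atp2a1 was the E box, 55 to 50 bases upstream of the start, and in Pln TATAAA, 219 to 214 bases upstream. Annotated exon bases next to the start, 35 in Atp2a1 and 19 in Pln, were left out.
Atp2a1, chr7:126463109-126463323, minus strand: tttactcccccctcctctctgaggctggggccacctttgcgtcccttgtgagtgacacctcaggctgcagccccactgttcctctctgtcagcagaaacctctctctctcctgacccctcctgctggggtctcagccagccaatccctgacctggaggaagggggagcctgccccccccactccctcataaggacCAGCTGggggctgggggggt
Pln, chr10:53337436-53337666, plus strand: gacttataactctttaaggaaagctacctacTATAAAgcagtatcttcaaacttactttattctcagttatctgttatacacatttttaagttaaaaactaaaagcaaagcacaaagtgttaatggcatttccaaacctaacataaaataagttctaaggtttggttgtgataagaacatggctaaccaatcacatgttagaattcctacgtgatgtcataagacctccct
The Slc8a3 window held CAGCTG 96 to 91 bases upstream, and 1 of the Pvalb windows held a MEF2 site 180 to 171 bases upstream. The other windows held none of these letters. A match is a description of the sequence and not evidence of binding.

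Pvalb, the calcium buffer of fast fibres, followed the tissue as Atp2a1 did. In SkM it was at 2866 and 4372 CPM in WT and at 2608, 2424 and 3361 CPM in E0del/+. In LV it was at 3.99 CPM in WT replicate 1 and at 3.58, 3.27 and 3.58 CPM in E0del/+, and at 731.6 CPM in WT replicate 2. WT SkM replicate 2 was the highest library, and no LV value overlapped a SkM value. The log2 fold change between tissues in edgeR was 10.24 ± 0.257 (adjusted p = 2.70e-07, higher in SkM in 4 of 4 mice).

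The 8 fast fibre markers were not at 0 in LV, and gave the level at which a fibre transcript was seen there. Their medians in the 4 LV libraries other than WT replicate 2 were 0.0986 to 0.118% of their mean SkM level. Atp2a1 was at 0.0897 to 0.106% and Pvalb at 0.105 to 0.128% in the same libraries, within the 0.0840 to 0.229% covered by single markers. Whether the low LV values of these genes come from heart cells was not tested.

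Of the sodium-calcium exchangers, LV had Slc8a1 and SkM had Slc8a3. Slc8a1 was at 674 CPM in WT LV replicate 1, 388 CPM in WT LV replicate 2 and 605, 449 and 535 CPM in E0del/+ LV. In SkM it was at 34.5 and 27.8 CPM in WT and at 35.7, 41.0 and 28.2 CPM in E0del/+. All LV libraries lay above all SkM libraries, and the log2 fold change of SkM against LV was -3.37 ± 0.236 (SE, edgeR adjusted p = 1.95e-05, lower in 4 of 4 mice). Slc8a1 overlaps AC122399.1 by 296 exonic bases and Gm11096 by 8 on the opposite strand, whose reads cannot be told apart from its own.

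Slc8a3 had 1 count in WT LV replicate 1 and 2, 1 and 4 counts in E0del/+ LV replicates 1 to 3, whereas WT LV replicate 2 had 306. In SkM it was at 89.98 and 89.7 CPM in WT and at 82.3, 85.6 and 95.5 CPM in E0del/+. Its SkM libraries were close together, and 8 of 50854130 counts in the 4 LV libraries stood against 5230 of 59362453 in the SkM of the same mice. The ratio was 560.0, with an exact 95% interval of 284.0 to 1298. In LV it stood at 0.0867 to 0.394% of its mean SkM level. E0del/+ replicate 3, with 4 counts, lay above the range of the fast fibre markers, and the other 3 libraries lay within it. The edgeR log2 fold change was 9.67 ± 0.245 (adjusted p = 2.74e-07, higher in 4 of 4 mice).

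Per length, Slc8a1 made up 99.96% of the summed RPKM of Slc8a1 and Slc8a3 in WT LV replicate 1 and 99.9, 99.9 and 99.8% in E0del/+ LV, but 79.3% in WT LV replicate 2. In SkM its share was 9.45 and 7.78% in WT and 10.6, 11.6 and 7.43% in E0del/+. The switch was therefore present in each of the 4 mice, with a difference of -90.1 points ± 1.70 (SD, with the smallest exact p possible). On raw counts, which do not allow for the longer exons of Slc8a1, the difference was -71.7 points.

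The plasma membrane pumps were closer to each other. Atp2b1, a pump found in most cell types, ranged from 82.2 to 88.9 CPM in the 5 LV libraries and from 74.6 to 88.8 CPM in SkM. The tissues overlapped on this scale. Atp2b4 was at 70.7 and 50.8 CPM in WT LV and at 52.4, 76.2 and 48.4 CPM in E0del/+ LV. SkM held it at 22.7 and 5.03 CPM in WT and at 12.9, 15.6 and 24.3 CPM in E0del/+. Every LV library was above every SkM library, and WT SkM replicate 2 was the lowest. Its edgeR log2 fold change was -1.08 ± 0.184 (adjusted p = 0.00158, lower in SkM in 4 of 4 mice).

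For Atp2b1 the edgeR log2 fold change was 0.66 ± 0.107 (adjusted p = 0.00126), and the call depended on the scaling. Scaling by total counts moved the median log2 fold change of all 13375 genes from -0.02 to -0.67, and the calls from 3991 genes higher and 4211 lower in SkM to 1698 higher and 7689 lower. Atp2b1 then stood at 0.01 with an edgeR adjusted p of 0.955, against 8.82e-07 to 0.00853 under the other alternatives, and Atp2a3 at -1.04 with an adjusted p of 0.0275. No other call among the 10 genes changed with this scaling. The share of Atp2b1 in the summed RPKM of both pumps was 58.2 and 67.0% in WT LV, 64.6, 57.1 and 68.0% in E0del/+ LV, 81.9 and 94.5% in WT SkM and 88.3, 86.1 and 80.9% in E0del/+ SkM. In 4 of 4 mice the SkM share exceeded the LV share, by 22.3 points ± 6.76 (SD, range 12.9 to 29.0), again with the smallest exact p possible.

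Over the 10 genes, 5 were higher in SkM (Atp2a1, Sln, Pvalb, Slc8a3 and Atp2b1), beside 29.8% of the 13375 genes tested. Another 4 were lower (Atp2a2, Pln, Slc8a1 and Atp2b4), beside 31.5% of all genes, and Atp2a3 passed in neither direction. The median log2 fold change was 0.13 over the 10 genes and -0.02 over all genes. The 9 calls were made also without the WT replicate 1 mouse and with all 5 mice. With all 5 mice the edgeR log2 fold changes of Atp2a1, Pvalb and Slc8a3 became 9.87, 9.45 and 7.13.

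Ordered by mean RPKM over the 4 LV libraries, the genes ran Atp2a2 at 2981 ± 467 (SD), Pln at 1990 ± 214, Slc8a1 at 30.4 ± 5.19, Atp2a1 at 15.3 ± 1.17, Atp2b1 at 12.01 ± 0.385, Atp2b4 at 7.47 ± 1.64, Atp2a3 at 6.14 ± 1.43, Pvalb at 3.99 ± 0.329, Sln at 1.14 ± 1.14 and Slc8a3 at 0.0319 ± 0.0250. The ranges of Atp2b4 and Atp2a3 overlapped, and those of the other neighbours did not. Over the 5 SkM libraries mean RPKM ran from Atp2a1 at 15192 ± 585 (SD) and Pvalb at 3462 ± 865 to Atp2a2 at 71.1 ± 51.2, Slc8a3 at 17.49 ± 0.982 and Atp2b1 at 11.7 ± 0.810. Below these stood Sln at 6.12 ± 2.93, Pln at 5.003 ± 2.53, Atp2a3 at 2.72 ± 2.07, Atp2b4 at 1.94 ± 0.943 and Slc8a1 at 1.80 ± 0.299. Atp2a2 and Slc8a3 overlapped in SkM, as did each pair of neighbours from Atp2b1 downwards, whereas Slc8a3 and Atp2b1 did not.

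Among 5 lists of other genes of calcium handling, 40 genes were found in the files, 34 passed the filter on low counts, 17 were higher in SkM and 11 lower in the edgeR test, beside the 29.8% higher and 31.5% lower of all 13375 genes. The median log2 fold change of the 34 genes was 0.36. The same shares of all genes stand beside the counts of each list, which are small. The other regulators of SERCA and of its store had 3 higher and 5 lower of 9 tested. Casq1, the calcium-binding protein of the fast fibre reticulum, was at 9.45 ± 2.81 RPKM in LV (SD, n = 4) and 1637 ± 241 RPKM in SkM (n = 5; log2 fold change 8.05 ± 0.309, edgeR adjusted p = 1.27e-06). S100a1, a calcium sensor that binds SERCA and ryanodine receptors, had a log2 fold change of -2.31 ± 0.158 (edgeR adjusted p = 1.70e-05). Hrc, a histidine-rich protein of the reticulum, was at 758 ± 101 RPKM in LV and 543 ± 17.6 RPKM in SkM. Its TMM-scaled edgeR log2 fold change had the opposite sign to these means, at 0.20 ± 0.199 (adjusted p = 0.423).

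Kinases and phosphatases that act on phospholamban had 7 genes higher and 4 lower in SkM of 12 tested in edgeR (29.8% and 31.5% of all genes). Ppp1cb, a catalytic subunit of protein phosphatase 1, was higher in SkM by 0.97 ± 0.179 (log2, edgeR adjusted p = 0.00234). Prkar1a, a regulatory subunit of protein kinase A, was at -1.38 ± 0.171 (log2 fold change, edgeR adjusted p = 0.000324). Ppp1ca had a log2 fold change of -0.01 ± 0.115 (edgeR adjusted p = 0.935). The list of other cytosolic calcium-binding proteins had 3 genes higher of 3 tested in edgeR.

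The list of mitochondrial calcium uptake had 3 genes higher and 1 lower of 6 tested in edgeR (29.8% and 31.5% of all genes). Micu2, a gatekeeper of the uniporter, was at -0.60 ± 0.106 (log2 fold change, edgeR adjusted p = 0.00188), and Smdt1 and Letm1 had log2 fold changes of -0.13 and -0.22 (edgeR adjusted p = 0.280 and 0.166). Of the other pumps and exchangers, 1 was higher and 1 lower of 4 tested. Atp2b3, a further plasma membrane pump, was at 0.108 ± 0.0884 RPKM in LV and 5.62 ± 0.769 RPKM in SkM (log2 fold change 6.41 ± 0.387, edgeR adjusted p = 9.83e-06). Atp2c1, the pump of the Golgi, and Slc8b1, the mitochondrial exchanger, had log2 fold changes of 0.03 and -0.46 (edgeR adjusted p = 0.891 and 0.0652).

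In SkM the genes differed widely in how far the 5 libraries were spread. The SD of log2 CPM was 0.06 for Atp2a1, smaller than for all but 2.01% of 13375 genes, and 0.08 for Slc8a3 (5.47%) and 0.10 for Atp2b1 (10.03%). It was 1.43 for Atp2a2, where 97.1% of genes had a smaller SD, 1.37 for Atp2a3 (96.7%) and 0.90 for Atp2b4 (90.5%). The median gene had an SD of 0.266, and Slc8a1 at 0.24, Pvalb at 0.34, Pln at 0.62 and Sln at 0.62 lay between. In the 4 LV libraries other than WT replicate 2 the SD was 0.25 for Atp2a2, 0.16 for Pln and 0.05 for Atp2b1, against 0.225 for the median gene. Sln at 1.05 and Slc8a3 at 0.53, both with few counts there, had a larger SD than 99.5% and 91.5% of genes. Atp2a1 and Pvalb were at 0.11, Slc8a1 at 0.25, Atp2b4 at 0.32 and Atp2a3 at 0.34.

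The SkM order of Atp2a2 was that of slow fibre transcripts. All 4 slow fibre markers were detected in each library, and their sum was 1011 CPM in WT replicate 1, 93.4 CPM in WT replicate 2 and 1408, 1871 and 200.2 CPM in E0del/+ replicates 1 to 3. Their most abundant gene was Myh7, the slow myosin heavy chain, at 824, 73.8, 1193, 1548 and 159.7 CPM in the same order. Atp2a2 was low in the same 2 libraries, WT replicate 2 and E0del/+ replicate 3, and highest in E0del/+ replicate 2. Sln had the same order over the 5 libraries. Tnni1, the slow troponin I, was at 119, 12.1, 132, 206 and 22.9 CPM. The 2 libraries lowest in these genes were also the 2 highest in Y-linked genes and lowest in Xist, which was at 0.343 CPM in WT replicate 2 and 0.422 CPM in E0del/+ replicate 3 against 278 to 397 CPM in the other SkM libraries. The same 2 libraries were highest in Pvalb. The parts of slow fibre content and of sex in the spread of Atp2a2, Sln and Pvalb were not tested.

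Pvalb ran the other way, highest in WT SkM replicate 2. Tnni2, the fast troponin I, was at 3618 and 6059 CPM in WT and 3577, 3446 and 4591 CPM in E0del/+. Both were highest in WT replicate 2 and next highest in E0del/+ replicate 3, as were Tnnt3 and Tnnc2. The other 5 of the 8 fast fibre markers had other orders. Mylpf and Actn3 were highest in WT replicate 2 but next highest in WT replicate 1 and E0del/+ replicate 2, Myh4 was highest in E0del/+ replicate 3, and Myh1 and Myh2 were lowest in WT replicate 2. Myh1, the myosin of IIx fibres, was at 5051 and 1707 CPM in WT and 5984, 6774 and 3240 CPM in E0del/+, lowest where Pvalb was highest. Over all 8 fast fibre markers the sum ranged from 106058 to 115509 CPM in SkM, led by Myh4 in every library. Their part in the spread of Pvalb was not tested.

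Atp2a3 was highest in the SkM libraries with the most Ptprc and Cd79a. Ptprc was at 39.1 and 0.515 CPM in WT and at 80.1, 5.73 and 2.39 CPM in E0del/+, and the B cell gene Cd79a at 6.33 and 0.0572 CPM in WT and at 14.9, 0.400 and 0.141 CPM in E0del/+. E0del/+ replicate 1 and WT replicate 1 were highest in these genes and in Atp2a3, and WT replicate 2 lowest. The other 4 of the 6 markers had other orders. Cd3e was lowest and Pf4 highest in E0del/+ replicate 3, Lyz2 and Itga2b were highest in WT replicate 1 and next highest in E0del/+ replicate 3, and Pf4 was lowest in E0del/+ replicate 1. None of the 6 leukocyte and platelet markers was at 0 in SkM. The sum of the endothelial markers had the SkM order of Atp2a3. It was 216.7, 92.4, 219.0, 209.8 and 180.2 CPM in WT replicates 1 and 2 and E0del/+ replicates 1 to 3. Pecam1 and Cdh5 had this order, and Kdr and Vwf did not. The part of leukocytes, platelets and endothelial cells in the spread of Atp2a3 was not tested.

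Pln in SkM was highest in E0del/+ replicate 1, and so were 4 of the 7 ventricle markers. Myh6, Tnnt2, Tnni3 and Ryr2 stood there at 0.330 to 0.426% of their mean LV level, and at 0.0640 to 0.255% in the other 4 SkM libraries. Pln stood at 0.469% of its mean LV level there and at 0.152 to 0.254% in the others. The other 3 markers had another order, with Actc1 highest in WT replicate 1 at 2060.2 CPM, and Myl3 and Myl2 highest in E0del/+ replicate 2 at 145.7 and 77.1 CPM. Over the SkM libraries Myl3 and Myl2 had the order of the slow fibre marker Myh7. The sum of all 7 ventricle markers was 2286, 234.7, 1459, 1602 and 206.5 CPM in WT replicates 1 and 2 and E0del/+ replicates 1 to 3, led by Actc1, which developing and regenerating skeletal muscle also expresses. None was at 0, and their part in the level of Pln was not tested. Slc8a1 in SkM stood at 4.91 to 7.26% of its mean LV level, above Myh6, Tnnt2, Tnni3, Ryr2, Myl3 and Myl2 in each library, whereas Actc1 stood higher than Slc8a1 in WT replicate 1 and E0del/+ replicates 1 and 2.

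**Figure D3:**
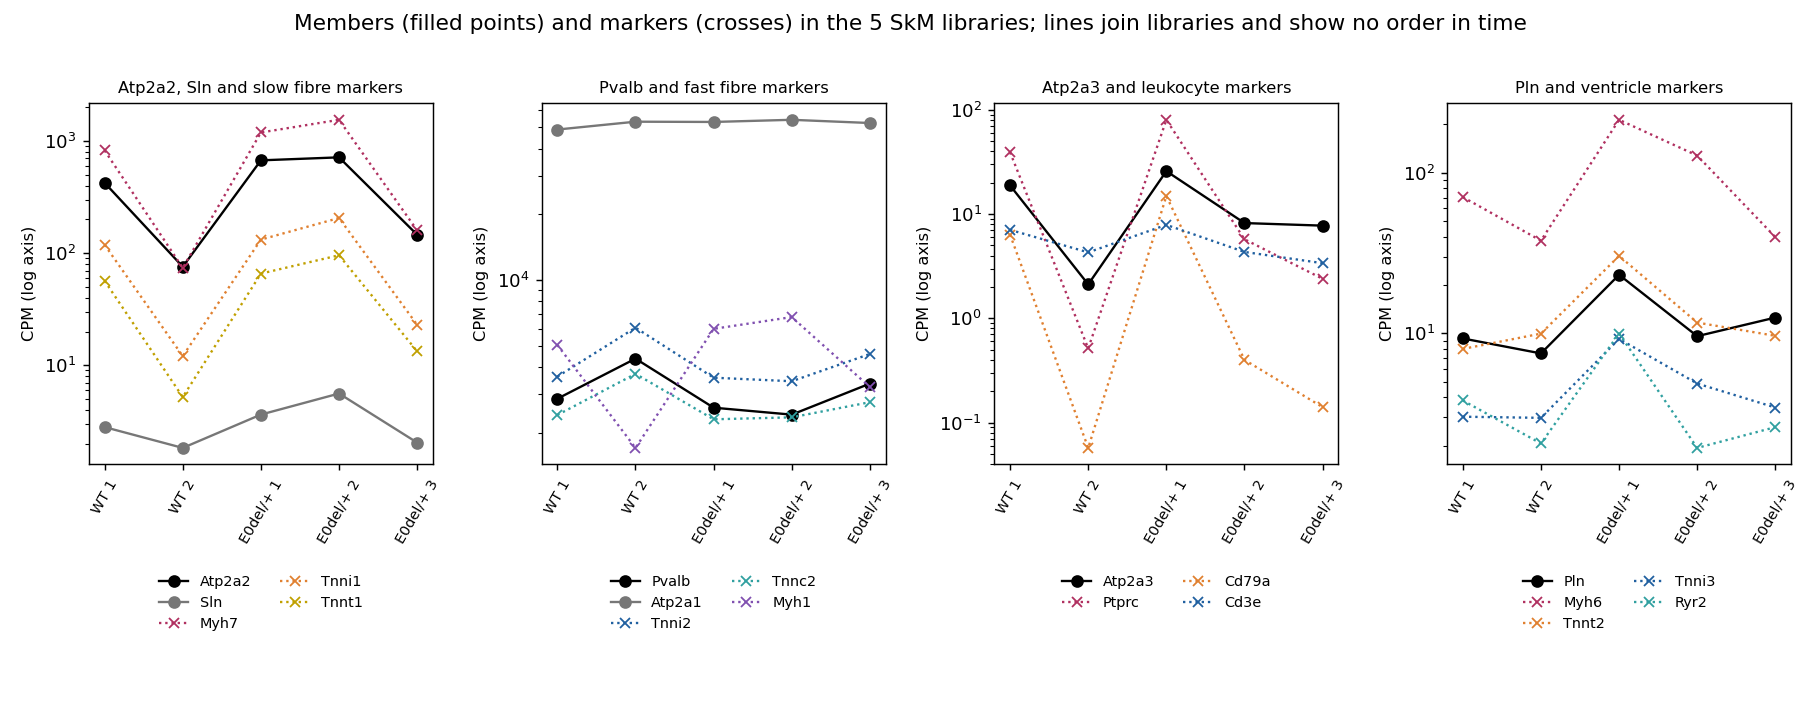
CPM (log axis) of Atp2a2 and Sln, Pvalb and Atp2a1, Atp2a3, and Pln (filled points) beside markers of slow fibres, fast fibres, leukocytes and ventricle (crosses) in the 5 SkM libraries. Lines only join libraries. Atp2a2 and the slow fibre markers are lowest in WT replicate 2 and E0del/+ replicate 3, and Pln and the 4 ventricle markers drawn are highest in E0del/+ replicate 1, unlike 3 others of the list (Actc1, Myl3 and Myl2), which are not drawn.

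The remaining markers also differed between libraries. Endothelial markers (4 of 4 detected, led by Cdh5) summed to 836 to 1680 CPM in LV, highest in E0del/+ replicate 2, and to 92.4 to 219 CPM in SkM, lowest in WT replicate 2. Adipocyte markers, led by Cfd or Fabp4, summed to 1129, 28.1, 305, 161 and 1157 CPM in SkM in the order used above. Fibroblast markers summed to 697 to 1331 CPM in LV and 112.7 to 381 CPM in SkM. WT SkM replicate 2 was the lowest SkM library for each of these lists.

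Smooth muscle markers summed to 173.5 to 286 CPM in LV and 35.4 to 127 CPM in SkM. In SkM their sum had the order of Atp2b4. It was 109.8, 35.4, 60.4, 73.4 and 127.2 CPM in WT replicates 1 and 2 and E0del/+ replicates 1 to 3. Myh11 and Tagln had this order, whereas Acta2 and Cnn1 were highest in WT replicate 1. The part of smooth muscle in the levels of Atp2b4 was not tested. Schwann cell markers summed to 15.0 to 33.4 CPM in LV and 17.8 to 95.4 CPM in SkM. Atrial markers, nearly all Nppa, summed to 201 to 593 CPM in LV. The red blood cell genes Hba-a1 and Hba-a2 were at 0 in all libraries, and the other 2 summed to 124.5 to 160.6 CPM in LV and 13.3 to 116.8 CPM in SkM. Of the 5 genes that mark sex, the Y-linked Kdm5d was at 26.2 CPM in WT LV replicate 2 and 26.0 CPM in E0del/+ LV replicate 3 and at 0 in the other 3 LV libraries. Both sexes thus occurred within each genotype, and with 1 such mouse in each, sex was not tested.

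In WT LV replicate 2, genes of fast fibres were raised together. Above the level of the other LV libraries, Atp2a1 stood at 24.7%, Pvalb at 23.3% and Slc8a3 at 30.9% of the mean SkM level. The 8 fast fibre markers, all detected, had a median of 22.4% (range 16.3 to 24.3%), and their sum was 26243 CPM against 109 to 124 CPM in the other LV libraries. The library also held adipocyte transcripts at a sum of 334 CPM against 119 to 259 CPM in the other LV libraries. Cfd was at 158.7 CPM against 0.960 to 15.3 CPM, and Plin1 at 45.9 CPM against 0.436 to 3.19 CPM. Adipoq was at 23.8 CPM against 0 to 1.89 CPM. Fabp4 was at 105 CPM in this library and at 117 to 243 CPM in the others. LV genes were lower there. Pln stood at 70.0%, Slc8a1 at 68.5% and Atp2a2 at 76.4% of their means in the other LV libraries, beside a median of 69.2% (59.5 to 82.5%) for the 7 ventricle markers. Whether skeletal muscle tissue or RNA reached this library was not tested.

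**Figure D4:**
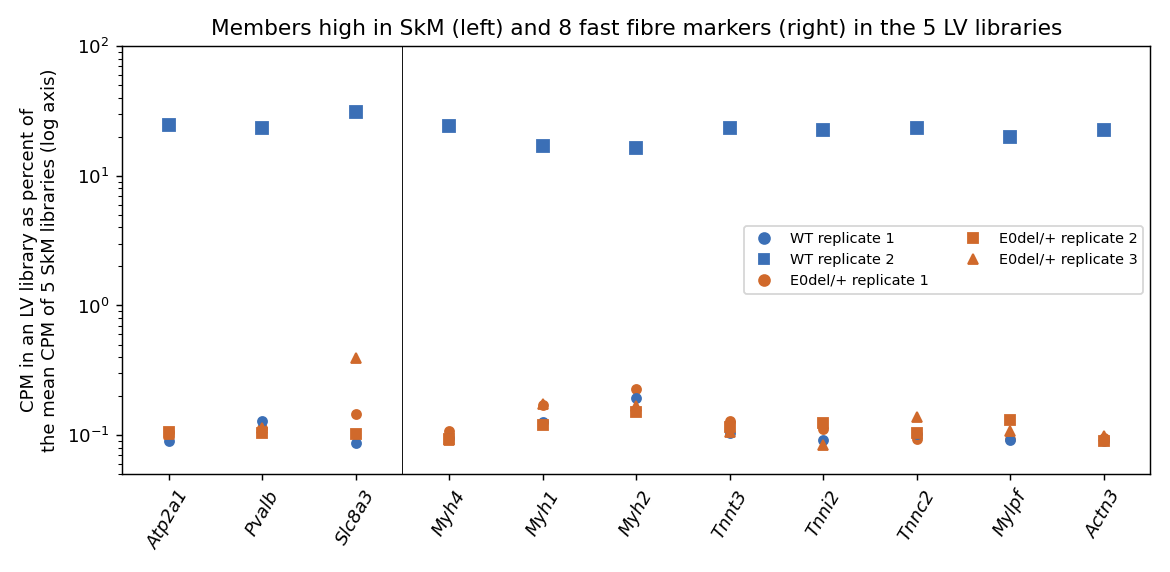
CPM of Atp2a1, Pvalb and Slc8a3 and of 8 fast fibre markers in each LV library as percent of the mean CPM of 5 SkM libraries (log axis), 1 point for each LV library. WT replicate 2 (blue squares) lies far above the other libraries for all 11 genes, and the other 4 libraries lie between 0.0840 and 0.229%, except for Slc8a3, which goes up to 0.394% and rests on 1 to 4 counts there.

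E0del/+ was then compared with WT within each tissue. In LV, 0 of 13420 genes passed at an adjusted p of 0.05 in edgeR's quasi-likelihood test (0%), 564 had an unadjusted p under 0.05, and DESeq2 called 3. These were Elovl6 at a log2 fold change of -2.83, Mcm2 at -1.58 and Rasl11b at 1.03, named after their values were seen. With batch as a block edgeR called 5, all lower in E0del/+ in that fit and likewise named after their values were seen. They were the Y-linked Ddx3y, Eif2s3y, Kdm5d and Uty and the muscle growth inhibitor Mstn. Ddx3y was at 114.2 CPM in WT LV replicate 2, 108.9 CPM in E0del/+ LV replicate 3 and 0.325 to 1.27 CPM in the other LV libraries. Its log2 fold change was -5.78 with the block and -0.68 without it. In batch 2 only the WT LV library was high in Y-linked genes, so sex and genotype cannot be told apart there. Among the 10 genes of calcium removal none was called by either tool, and 2 of 9 tested had an unadjusted p under 0.05 in edgeR. Slc8a3 did not pass the filter on low counts.

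Those 2 were Atp2a1, with a log2 fold change of -7.02 ± 1.63, and Pvalb, at -6.85 ± 1.55 (edgeR adjusted p = 0.997 for both), and the fit rested on WT LV replicate 2. With batch as a block they stood at -3.94 and -4.24. Without that library they stood at 0.23 and -0.19, and 0 of the genes were called, with WT then 1 library assumed to vary like E0del/+. Without WT LV replicate 1, so that the library with fast fibre transcripts alone stood for WT, 578 genes were called, 574 of them lower. Among them Atp2a1 was at -8.01, Pvalb at -7.84 and Slc8a3 at -7.26 (edgeR adjusted p = 2.65e-07, 5.68e-08 and 1.45e-06). Under the other alternatives that tested them, which for Slc8a3 were 2, their adjusted p was 0.0556 or more. Within batch 1 the log2 ratio of E0del/+ to WT was 0.24 for Atp2a1 and -0.16 for Pvalb, and within batch 2 it was -7.88 and -7.81.

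In LV Atp2a2, Pln and Slc8a1 lay near 0 between genotypes. The edgeR log2 fold change was 0.04 ± 0.287 for Atp2a2, 0.10 ± 0.265 for Pln and -0.04 ± 0.275 for Slc8a1 (SE, adjusted p = 0.997 for each). Without WT LV replicate 2 the values were -0.13, -0.11 and -0.33. Atp2a3, Atp2b1 and Atp2b4 had log2 fold changes from -0.12 to -0.08. Sln, with few counts, was at -0.25 ± 0.938, and it stood at 1.54 without WT LV replicate 2 and at -1.09 without WT LV replicate 1. In LV the genotypes overlapped in 9 of the 10 genes, and Pvalb was lower in all 3 E0del/+ libraries than in both WT libraries, beside 6.53% of all genes lower and 8.82% higher in this way. Its values in WT replicate 1 and the E0del/+ libraries, 3.99 against 3.27 to 3.58 CPM, are within the fast fibre level seen in LV.

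In SkM, 0 of 13154 genes passed in edgeR (0%), 114 had an unadjusted p under 0.05 and DESeq2 called 0. With batch as a block edgeR called 1, the Y-linked Eif2s3y at -6.60, named after its value was seen. Without the block it was at -0.91. Eif2s3y was at 37.4 CPM in WT SkM replicate 2 and 35.5 CPM in E0del/+ SkM replicate 3. Among the 10 genes of calcium removal, all of which were tested, 0 had an unadjusted p under 0.05 in edgeR (adjusted p = 0.9998 for each). With batch as a block 596 of all 13154 genes had an unadjusted p under 0.05 in edgeR. Among them were 3 of the 10, namely Atp2a2 at a log2 fold change of 1.95, Atp2a3 at 1.13 and Pln at 0.85, each with an edgeR adjusted p of 0.9989. Pln also had one in edgeR without the filter on low counts, at 0.85, beside 156 of 18519 genes. It had one without E0del/+ SkM replicate 2, at 1.06, beside 16 of 13066 genes. Without the block the largest log2 fold changes were 1.12 ± 0.895 for Atp2a2, 0.84 ± 0.367 for Pln, 0.73 ± 0.520 for Sln and 0.49 ± 0.910 for Atp2a3. Sln stood at 0.28 without E0del/+ SkM replicate 2, and Atp2a3 at 2.57 without WT SkM replicate 1 and -0.32 without WT SkM replicate 2. Atp2a1 was at 0.06 ± 0.208, Slc8a3 at -0.03 ± 0.148 and Pvalb at -0.40 ± 0.304.

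Pln was the 1 gene of the 10 whose SkM values did not overlap, with each E0del/+ library above both WT libraries, beside 4.14% of all genes higher and 7.31% lower in this way. The lowest E0del/+ value, 9.59 CPM in replicate 2, was close to the highest WT value, 9.29 CPM in replicate 1. Within batch 1 the log2 ratio of E0del/+ to WT was 1.32 and within batch 2 it was 0.36. Without E0del/+ SkM replicate 1, the library highest in Myh6, Tnnt2, Tnni3 and Ryr2, the edgeR log2 fold change was 0.44. For Atp2a2 the within-batch log2 ratios were 0.67 and 3.24, for Sln 0.37 and 1.61, and for Pvalb -0.14 and -0.85, with the larger ratio in batch 2, whose WT library had the least slow fibre transcripts. In batch 2 the WT library was high in Y-linked genes and the E0del/+ library was not, so that sex and genotype cannot be told apart there. Batch 3 holds no WT library. Atp2a2 stood at 2.63 without WT SkM replicate 1 and at 0.41 without WT SkM replicate 2.

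**Figure D5:**
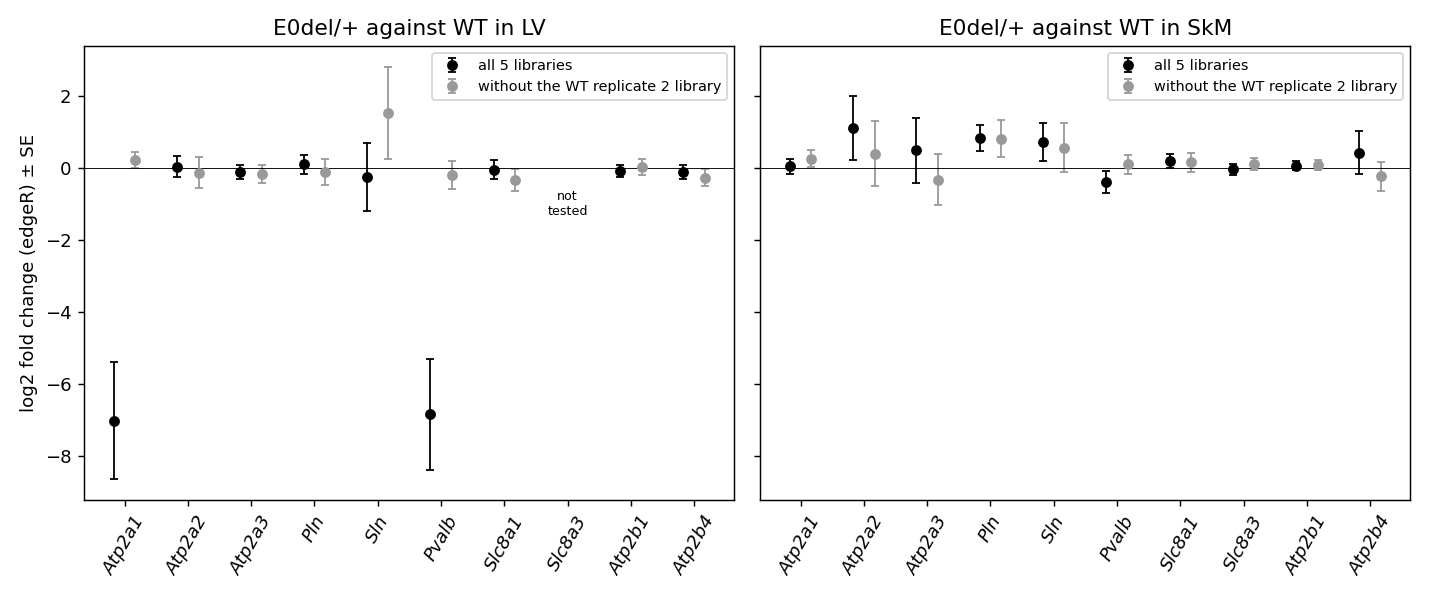
Log2 fold change of E0del/+ against WT in LV and SkM from edgeR, with bars of 1 SE, over all 5 libraries (black) and without the WT replicate 2 library (grey). In LV, Atp2a1 and Pvalb go from -7.02 and -6.85 to 0.23 and -0.19 without that library, and Slc8a3 was not tested.

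In each tissue the 7 shares and ratios of E0del/+ and WT overlapped, with two-sided exact permutation p from 0.4 to 0.9, where 2 against 3 libraries cannot go below 0.1. The Pln to Atp2a2 ratio in LV was 67.6 ± 5.13 in E0del/+ (SD, n = 3) and 65.9 and 61.1 in the WT libraries. The genotype effect in SkM was also set against that in LV in 1 edgeR fit over all 10 libraries. It called 0 of 14327 genes (0%), with 238 at an unadjusted p under 0.05 and 0 called by DESeq2, and in that edgeR fit none of the 10 genes had an unadjusted p under 0.05. In DESeq2 254 of 14327 genes had one, among them Slc8a3, Atp2a1 and Pln. Without the filter on low counts 324 of 19567 genes had one in edgeR, among them Slc8a3. Without mouse as a block 477 of 14327 genes had one in edgeR, among them Atp2a1, Pvalb and Slc8a3 at 7.04, 6.41 and 6.17. The log2 differences were 4.87 ± 2.23 for Slc8a3, 3.94 ± 3.01 for Atp2a1 and 3.75 ± 2.28 for Pvalb (edgeR adjusted p = 1). Without the WT replicate 1 mouse, 155 genes were called, with Atp2a1 at 7.85, Pvalb at 7.01 and Slc8a3 at 7.04. Without the WT replicate 2 mouse 0 were called by edgeR, with 161 at an unadjusted p under 0.05, and the same genes stood at 0.11, 0.36 and -0.996. Of the other genes of calcium handling, 0 of 34, 34 and 36 tested were called by edgeR in LV, SkM and the interaction, and 3, 1 and 0 had an unadjusted p under 0.05.

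Genes that followed a pump or regulator most closely over the 9 libraries other than WT LV replicate 2 were sought among 13375 genes by the root mean square difference of centred log2 CPM. For Atp2a1 they were Actn3 at 0.08, Myh4 at 0.10 and Mylpf at 0.17, and for Pvalb they were Tnnt3 at 0.16, Tnnc2 at 0.17 and Myoz1 at 0.20. For Atp2a2 they were Myl3 at 0.31, Myh7b at 0.36 and Casq2 at 0.36, and for Pln they included Fhl2 at 0.30 and Mov10l1 at 0.34. Sln had no gene as close, with Golga7b at 0.50, Hoxa5 at 0.51 and Itm2a at 0.54. The libraries of 1 tissue share most of this pattern, and the measure is a description without a test.

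These data have limits. WT had 2 mice and 1 of its LV libraries held fast fibre transcripts. A genotype difference that did not pass is not shown to be absent. The deletion was studied in 1 mouse line. The tissues were sequenced whole, and the share of fibre types and of other cells differed between SkM libraries. Counts are of genes, so that the splice forms of Atp2a2, Slc8a1 and the plasma membrane pumps were not separated. Protein, phosphorylation of phospholamban and calcium were not analysed here. The TMM scaling between tissues assumes that most genes do not differ.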

How the data were processed

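RNA had been extracted with TRIzol, selected for poly(A) in 2 rounds and made into unstranded Nextera XT libraries. The authors deposited whole-number counts and RPKM for each gene of each library. RPKM equalled counts divided by gene length and by the library's summed counts. The submitters' processing notes name STAR, DESeq2 and mm10. The counting tool and annotation are not given in the sources used here. CPM, shares and tests were computed here from the deposited counts and RPKM.

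The members and lists were chosen with earlier results of these data known. Named genes were the 10 members, up to 3 of the most abundant genes of each of 5 lists of calcium handling genes in the tissue comparison, list genes that passed in other comparisons, and up to 3 of the genes most like each of 5 members. Another 12 lists held markers of cell types and sex. Symbols were matched directly or through synonyms, and Strit1, Arln, Erln and Hbb-bt were not found.

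edgeR 4.0.16 in R 4.3.3 (filterByExpr, TMM, quasi-likelihood test, Benjamini-Hochberg adjusted p under 0.05) fitted SkM against LV with mouse as a block in 4 mice, and genotype within each tissue and across tissues. Exact permutation tests enumerated all signs or labels in Python 3.11.15, and the exact intervals of count ratios used scipy 1.17.1. Likeness used log2 CPM with a prior count of 2. DESeq2 1.42.0, other size factors, total counts, no filter beyond 1 count, blocks and leaving out each mouse or library were tried. The scripts were tested on simulated data with the same spread for every gene and no differences between mice. Of 100 genes changed by a log2 of 1, edgeR recovered 38 in LV, 50 in SkM and 73 between tissues. Of 100 genes changed by a log2 of 2, it recovered 99, 100 and 100. Recovery at the spread of the real libraries was not tested. p-values measure the spread between mice.

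Both tissues of a mouse were paired by the library name. Correlations of deviations from group means between tissues of a mouse were -0.11 to 0.12. WT and E0del/+ of a batch correlated at 0.01 and -0.14 in LV and 0.43 and 0.28 in SkM. Exon overlaps were read from GENCODE release M21. No libraries of a group agreed within sampling noise.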

Additional observations from a re-analysis of the deposited data

Results flagged for a closer look

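In LV, WT replicate 2 stood apart from the other 4 libraries in 3 of the 10 genes. The gap between its CPM and the next library, divided by the range of the 5 libraries, was 0.9993 for Atp2a1, 0.999 for Pvalb and 0.9901 for Slc8a3. The CPM were 12945 against 46.9 to 55.3 for Atp2a1, 731.6 against 3.27 to 3.99 for Pvalb, and 27.5 against 0.0768 to 0.349 for Slc8a3. A gap of this kind was sought in 20 sets, each gene in each tissue, and none was found in SkM. The 3 gaps came from the same library, which had already been set apart. They are therefore not independent, and they describe that library without a test against chance. The 8 fast fibre markers were high in the same library, and the part of skeletal muscle RNA in these 3 values was not tested.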

How the results depend on the processing

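Of the tissue log2 fold changes of the 10 genes, 97 of 100 alternatives kept sign and call, 2 added a call for Atp2a3 and 1 lost that of Atp2b1. Under total counts without TMM, 1698 genes were higher and 7689 lower in SkM. Within LV 81 of 98 values kept sign and call, 15 reversed sign and 2 gained a call, and within SkM 102 of 110 kept both and 8 reversed sign. Of the interaction values 92 of 100 kept both, 5 reversed sign and 3 gained a call. DESeq2 called 3 genes in LV, and the batch block called 5 in LV and 1 in SkM. The block moved Atp2a2 in LV to -0.0896, Atp2a3 to 0.0229, Sln to 0.31, Atp2a1 to -3.94 and Pvalb to -4.24. In SkM it moved Atp2a2 from 1.12 to 1.95, Atp2a3 from 0.49 to 1.13 and Slc8a1 from 0.18 to 0.31, and in neither tissue did it add or remove a call among the 10 genes. Of the differences in shares and ratios between tissues 37 of 42 kept their size. With all 5 mice the differences were 86.7 points for Atp2a1, -86.5 for Atp2a2 and -86.4 for Slc8a1. On raw counts they were -71.7 for Slc8a1, -25.2 for Pln per 100 Atp2a2 and -1.09 for Sln per 100 Atp2a1. The last stood against -7.22 per length and an SD of 6.98. For the ratios of Pln to Atp2a2 and Sln to Atp2a1, raw counts differ from RPKM only by the fixed ratio of gene lengths. Leaving out each library in turn gave 0 to 578 genes in LV, and leaving out each mouse gave 0 to 155 in the interaction, the most in both without WT replicate 1. The log2 fold changes in LV then ran from -8.01 to 0.23 for Atp2a1, -0.13 to 0.24 for Atp2a2, -0.26 to 0.0307 for Atp2a3, -0.11 to 0.36 for Pln, -1.09 to 1.54 for Sln, -0.33 to 0.33 for Slc8a1, -0.18 to 0.0271 for Atp2b1 and -0.27 to 0.0686 for Atp2b4. In SkM they ran from -0.12 to 0.26 for Atp2a1, -0.32 to 2.57 for Atp2a3, 0.28 to 0.99 for Sln and -0.77 to 0.10 for Pvalb. They ran from 0.0171 to 0.28 for Slc8a1, -0.15 to 0.10 for Slc8a3, -0.00285 to 0.11 for Atp2b1 and -0.23 to 1.69 for Atp2b4 in the same tissue. In the interaction they ran from -0.26 to 2.38 for Atp2a3, -0.73 to 2.13 for Sln, -0.19 to 0.57 for Slc8a1 and -0.996 to 7.04 for Slc8a3. Where 1 WT library was left, its spread was assumed to be that of E0del/+. The cause of these changes was not tested, and leaving out a library or mouse also left fewer samples.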
